A study of Mus musculus with 19 samples.

Results

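Mitochondrial ribosomal proteins were followed through 19 lymphomas of mice carrying the Eμ-Myc transgene, whose Eμ enhancer, taken from an antibody gene, switches on Myc in B cells. The tumours were flash frozen and sequenced as bulk polyadenylated RNA. The members are all genes of the table whose symbol is Mrpl or Mrps followed by a number, without pseudogenes. They number 77 of 21086 genes, 48 named Mrpl and 29 named Mrps, and 1 pseudogene row was left out. The tumours were compared by Bptf genotype and by age at onset. There were 6 early wild-type tumours (Bptf+/+, onset at 9 to 17 weeks, WT_early), 5 late wild-type tumours (28 to 76 weeks, WT_late), 4 early heterozygous tumours (Bptf+/Δ, 8 to 13 weeks, HET_early) and 4 late heterozygous tumours (30 to 66 weeks, HET_late). The labels do not say which exons the Δ allele lacks. All 4 groups carried the Myc transgene, so no tumour without it served as a control. Each library was 1 tumour, and the number after a group's name only names a library.

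The mitochondrial ribosome translates the few mRNAs encoded by mitochondrial DNA, all of them for subunits of the respiratory chain and ATP synthase. Its proteins are encoded in the nucleus, made in the cytosol and imported. Proteins of the large subunit are named Mrpl and those of the small subunit Mrps, and some of each descend from bacterial ribosomal proteins while others have no bacterial counterpart. A few exceptions bear on the names used here. Mrps30 and Mrps18a are built into the large subunit in spite of their names, and Mrps36 is a component of the oxoglutarate dehydrogenase complex. Mrps18a and Mrps18b are counted here as without a bacterial counterpart, although they are paralogs of Mrps18c, which is counted with one. In cells driven by Myc, genes for ribosomes and mitochondria are among the known targets of the oncoprotein.

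Values are read counts per gene that were divided by 1 factor per library (normalised read counts). Recovered whole reads came to between 8297856 and 12497732 per library. Of the 77 members, 76 reached a value of 1 in 4 or more libraries and were tested, and Mrpl53 did not. Bptf was between 1665 and 2586 in the 11 wild-type tumours and between 408 and 1573 in the 8 heterozygous ones, so the genotypes did not overlap. In 3 libraries the most abundant transcript was not the elongation factor gene Eef1a1. These were HET_early_2 (Col2a1, a cartilage collagen), WT_early_6 (Bpifa2, a salivary protein) and HET_late_4 (Igha, an immunoglobulin heavy chain). HET_early_2 went against its label as a B cell lymphoma, since the B cell receptor genes Cd79a and Cd79b were at 38.5 and 54.5 there, while its Myc value, 1232, was the lowest of all. In WT_late_1 Cd79a was 103, but Cd79b was 2737. Fewer cells of a type and less RNA per cell cannot be told apart in such bulk samples. The p-values below measure the spread between separate tumours.

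Promoter sequences are shown for 4 members as examples of 3 of the motifs searched, picked after the matches and values were known. Mrps22 and Mrpl9 are also among the members called for their slope on Myc below, and all 4 windows are free of exons of other genes in GENCODE. They are the 250 bases before the RefSeq start (GRCm38.p6), 5′ to 3′ along the gene's strand, and capitals mark the motif. In Mrps22 (chr9:98601680-98601929, minus strand) the capitals are the core bound by ETS factors such as the Gabpa subunit of NRF2, in Mrpl9 (chr3:94443086-94443335, plus strand) that of NRF1 with its overlapping match on the other strand, in Mrpl22 (chr11:58171414-58171663, plus strand) both, and in Mrpl20 (chr4:155802628-155802877, plus strand) the E-box bound by Myc and its relatives.
Mrps22: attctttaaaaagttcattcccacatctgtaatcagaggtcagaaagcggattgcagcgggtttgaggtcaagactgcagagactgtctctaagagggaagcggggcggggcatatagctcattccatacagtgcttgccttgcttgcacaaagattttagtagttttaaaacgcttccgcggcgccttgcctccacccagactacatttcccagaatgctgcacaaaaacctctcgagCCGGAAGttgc
Mrpl9: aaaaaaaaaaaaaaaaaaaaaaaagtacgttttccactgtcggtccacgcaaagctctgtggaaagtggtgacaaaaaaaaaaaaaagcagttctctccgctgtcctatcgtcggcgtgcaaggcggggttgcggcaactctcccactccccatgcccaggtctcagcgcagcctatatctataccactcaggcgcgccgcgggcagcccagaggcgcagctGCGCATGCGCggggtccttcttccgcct
Mrpl22: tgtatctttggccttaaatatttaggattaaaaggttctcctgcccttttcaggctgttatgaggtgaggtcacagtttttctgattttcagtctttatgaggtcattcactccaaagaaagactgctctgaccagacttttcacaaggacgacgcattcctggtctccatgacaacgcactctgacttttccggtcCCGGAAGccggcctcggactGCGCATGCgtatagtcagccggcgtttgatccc
Mrpl20: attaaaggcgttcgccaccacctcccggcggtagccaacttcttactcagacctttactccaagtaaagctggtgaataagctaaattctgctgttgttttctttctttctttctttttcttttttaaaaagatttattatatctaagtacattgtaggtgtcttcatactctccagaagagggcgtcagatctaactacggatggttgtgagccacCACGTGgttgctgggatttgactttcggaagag

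RefSeq held a promoter for 68 of the 77 members, and both strands of the window from 250 bases before to 50 bases after the start were searched. The ETS core CCGGAAG was in 25 of the 68 (36.8%), against 19.9% of 9216 promoters of genes with a mean value of at least 20. The YY1 core AAGATGGC was in 12 (17.6%, against 5.3%) and the NRF1 core GCGCATGC in 8 (11.8%, against 5.94%). The E-box CACGTG was in 5 (7.35%), below the 11.8% of the same background. In 29 members none of these motifs was in the window, and median GC content was 58% in members and 60.8% in the background. The closing AAG of the ETS core opens the YY1 core, so 1 stretch can hold both, and a match is a string of letters, not a bound site. By GENCODE annotation, 19 members (24.7%) shared a start region with a protein-coding gene on the other strand within 1000 bases, for example Mrps12 with the mitochondrial seryl-tRNA synthetase gene Sars2, Mrpl36 with Ndufs6 of complex I and Mrps34 with Eme2. The share was 10.8% among 11482 protein-coding genes with a mean value of at least 20.

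Levels were compared per length, as the normalised read count per 1000 bases of the gene's annotated exons, averaged over the 19 libraries. The highest members were Mrpl34 (960.0 ± 360.6, SD, n = 19), Mrps21 (836 ± 315), Mrpl12 (801 ± 276) and Mrpl54 (649 ± 242). Mrpl34 and Mrps21 are counterparts of bacterial proteins, and Mrpl12 forms the stalk of the large subunit that contacts translation factors. The SDs of neighbours in this order exceed the steps between them. They are spreads over tumours in which the members moved together, and do not measure how certain the order is. The lowest were Mrpl53 (0.578 ± 0.945), Mrpl33 (45.3 ± 22.8), Mrps10 (49.2 ± 12.0) and Mrps35 (55.2 ± 16.7). Median levels were 231 for 30 large-subunit proteins with a bacterial counterpart, 262 for 20 without, 194 for 16 small-subunit proteins with one and 107 for 10 without.

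Both ends of this order rest on the annotation. Scaled by the principal transcript instead of all exons (a choice made after seeing the data), the highest were Mrpl52 (1603), Mrpl42 (1532), Mrps21 (1266) and Mrpl23 (1241), while Mrpl34 moved from rank 1 to 6, Mrpl12 from 3 to 7 and Mrpl54 from 4 to 8. At the low end, Mrpl33 came to 695 and Mrps10 to 391, whereas Mrpl53 stayed lowest at 0.657 and Mrps35 came to 114. Exons of 23 members overlap those of another protein-coding gene, 6 of them over more than 25% of their length: Mrpl53 (88.0%, with Gm42688), Mrps34 (77.8%, with Mapk8ip3 and Nme3), Mrps25 (69.8%, with Nr2c2), Mrpl19 (36.0%, with Gcfc2), Mrpl43 (33.4%, with Twnk) and Mrpl24 (26.3%, with Rrnad1). No source used here states whether counting used strand, so reads of these genes and of their partners cannot be told apart, and their values are uncertain. Mrpl53 lay between 0 and 2.88 in every library.

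The members moved together from tumour to tumour. Their share of all reads was 0.442% ± 0.0433 (SD, n = 6) in WT_early, 0.430% ± 0.0520 (n = 5) in WT_late, 0.350% ± 0.127 (n = 4) in HET_early and 0.476% ± 0.121 (n = 4) in HET_late. Single libraries set the extremes, HET_early_2 at 0.167% and HET_late_2 at 0.634%, with the other 17 libraries between 0.366% and 0.506%. Of the 76 members, 65 had their highest value in HET_late_2 and 65 their lowest in HET_early_2. The median member stood 1.05 above its own median on the log2 scale in HET_late_2 and 0.97 below it in HET_early_2, a deviation of -0.97, and the next largest deviation was 0.37, in WT_late_4. Share and deviation parted in HET_late_4. The deviation there was 0.32, but the share was 0.368%, below HET_early_3 (0.457%) and HET_early_4 (0.409%). A single read was worth a value of 1.51 in HET_late_4 and 0.747 to 1.44 elsewhere.

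**Figure D1:**
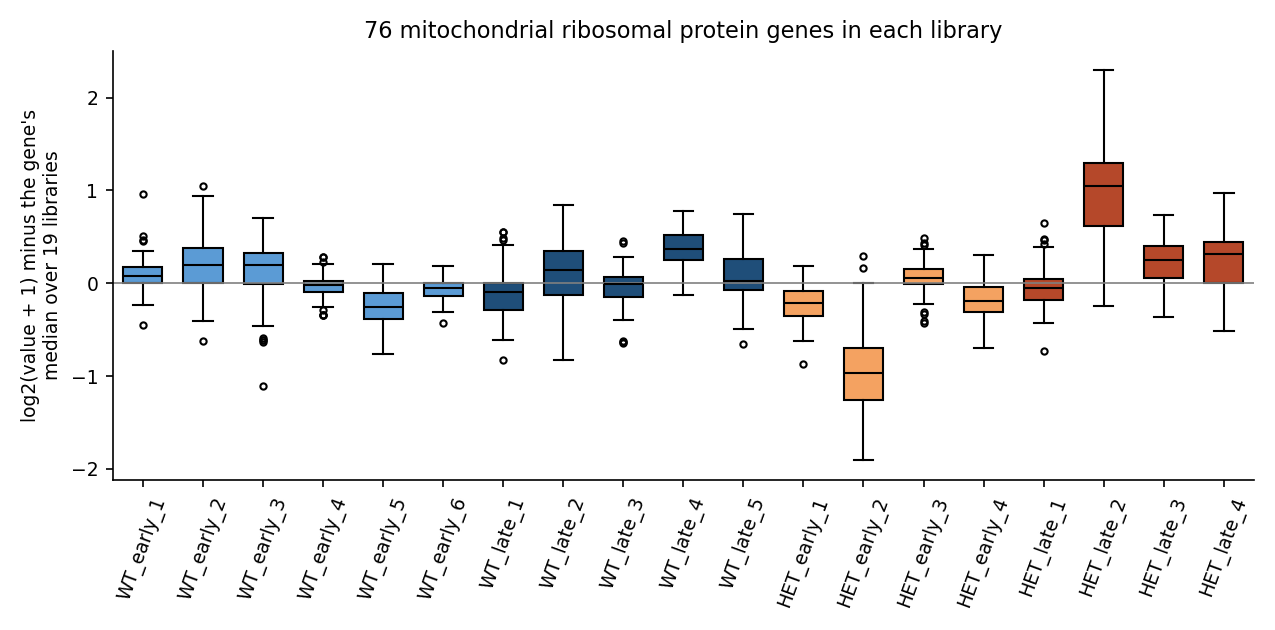
Deviation of 76 mitochondrial ribosomal protein genes from their own median over 19 libraries, on the log2(value + 1) scale. Each box holds the central quartiles of the members in 1 library, the line is their median, whiskers reach the last value within 1.5 box lengths, and colours give the group. The medians of HET_early_2 (-0.97) and HET_late_2 (1.05) stand apart from the other 17.

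As a description across the 19 libraries, the median Pearson correlation between 2 members was 0.72 over 2850 pairs, against -0.04 between a member and each of 12460 other genes with a mean value of at least 20. Without HET_early_2 and HET_late_2 it was 0.41 over 17 libraries. All these points share library depth and transcript composition. Mrpl46 (r = 0.97), Mrpl12 (0.97) and Mrpl22 (0.97) followed the median of the other members most closely, and Mrps2 (0.35), Mrps6 (0.46) and Mrpl17 (0.55) least closely. Both subunits kept their proportion: the summed values of 49 large-subunit members were 2.25 to 2.48 times those of 26 small-subunit members in the 19 libraries.

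The median spread of single members was smaller than that of all expressed genes, in a comparison not matched for level. The SD over 19 tumours on the log2 scale had a median of 0.44 among the 76 members. It was 0.59 among 12536 genes with a mean value of at least 20, whereas the members' mean values ran from 123 (Mrps34) to 1227 (Mrpl12). Mrps12, whose bacterial counterpart lies at the decoding centre, varied most (SD 0.76), followed by Mrpl57 (0.60) and Mrpl17 (0.57). Mrps2 varied least (0.23), followed by Mrpl10 (0.26), which anchors the stalk proteins, and Mrpl38 (0.30). Mrps2 was 525 at the lowest, 611 at the median and 697 at the highest in WT_early, then 617, 465, 502, 717 and 538 in WT_late, 606, 364, 468 and 594 in HET_early, and 588, 497, 633 and 547 in HET_late. All 4 groups overlap, and HET_late_2 (497), where most members peaked, held the lowest late heterozygous value of Mrps2.

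The first comparison asked whether tumours of late and early onset differ. Averaged over both genotypes, all 76 members tested were higher in late tumours, with a median log2 difference of 0.38, while 8772 of 19927 genes were higher and the median over all genes was -0.08. Only Mrpl57, a small protein of the large subunit without a bacterial counterpart, passed the test (limma, adjusted p = 0.0406 over all genes), so 1 of 76 members was called against 0.437% of all genes. Without adjustment, 37 of 76 members and 3785 of 19927 genes had a p under 0.05. The median was 0.42 for large-subunit proteins with a bacterial counterpart (30 genes), 0.34 for those without (19), 0.35 for small-subunit proteins with one (16) and 0.36 for those without (10).

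Mrpl57 lay between 341 and 578 in WT_early, with a median of 503. The WT_late values were 618, 590.1, 451, 638 and 638. In HET_early it was 287, 209, 392 and 345, and in HET_late 555, 1394, 634 and 936. Every late heterozygous tumour was above every early one, whereas wild-type tumours overlapped. The fitted late minus early difference was 0.87 ± 0.18 (log2, SE) averaged over genotype, 1.45 ± 0.27 in heterozygotes (limma, adjusted p = 0.0527) and 0.28 ± 0.23 in wild type. The averaged call held in 6 of 19 fits that each left out 1 library, with differences between 0.74 and 0.96.

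Other count models called more members for onset averaged over genotype. edgeR called 4 (Mrpl43, Mrpl57, Mrps24 and Mrps34) against 2.7% of all genes, and DESeq2 called 18, against 9.29% of all genes. The Mrpl43 values, for a protein without bacterial counterpart in the large subunit, were 489.6 to 600.1 in WT_early (median 540.5), then 567, 709, 628, 813 and 571 in WT_late, 536, 336, 633 and 469 in HET_early, and 642, 1095, 866 and 985 in HET_late. Late heterozygous tumours were all above the early ones, by at least the small step from 633 to 642. Mrps34, needed for a stable small subunit, ran from 77.6 to 133 in early wild-type tumours and was 123, 144, 107, 175 and 171 in WT_late. Its HET_early values were 91.3, 82.4, 91.4 and 75.8, all below the HET_late values of 127, 255, 105 and 184. Its reads and those of Mrpl43 overlap other genes, as described above.

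**Figure D2:**
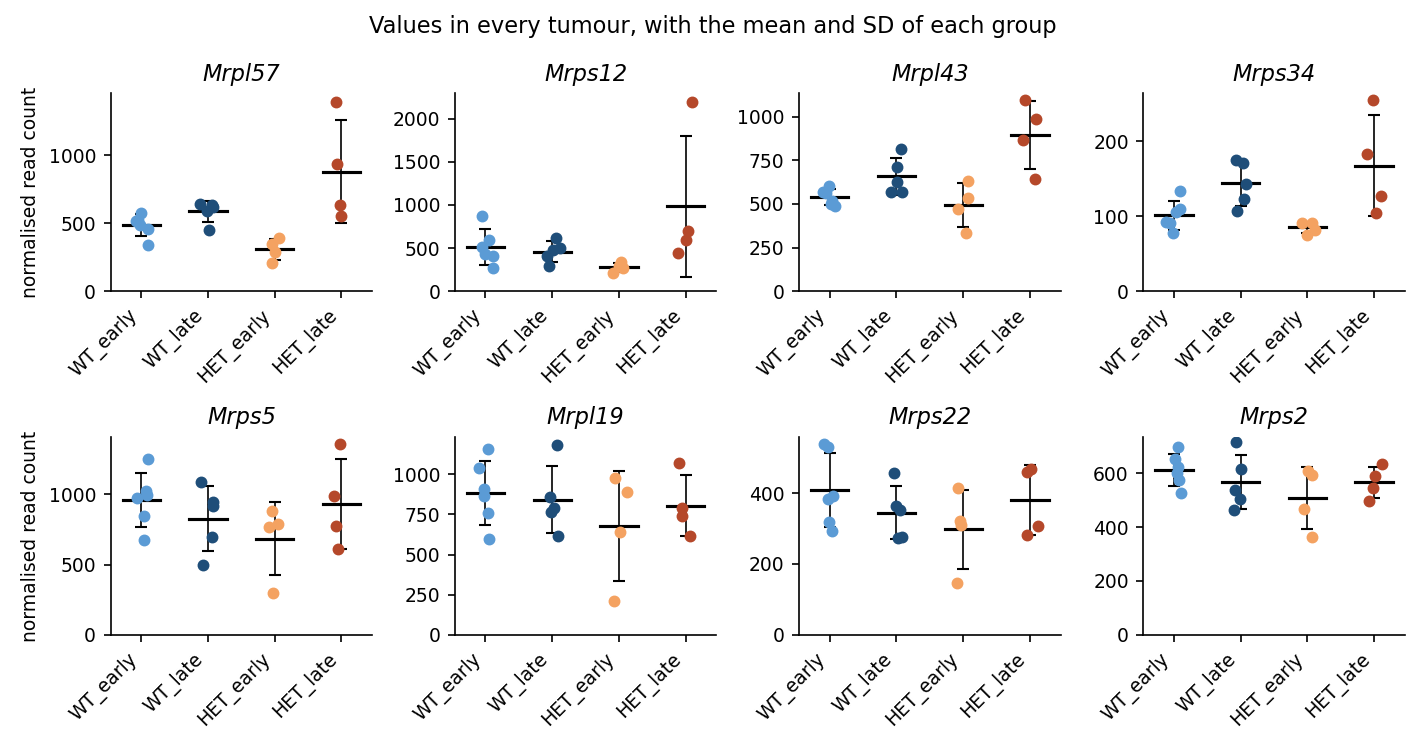
Normalised read counts of 8 members in each of 19 tumours, by group (6, 5, 4 and 4 tumours), with bars for the group mean and 1 SD. Mrpl57, Mrpl43 and Mrps34 are higher in every HET_late tumour than in any HET_early tumour, Mrps12 reaches 2191 in HET_late_2, and Mrps2 differs little between groups.

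In wild-type tumours alone, late and early onset differed little. The median member difference was 0.07, with 54 members higher and 22 lower, and the median over all genes was -0.02. No member was called by limma, edgeR or DESeq2, nor was any gene by limma (0% of all genes). Members with an unadjusted p under 0.05 numbered 0, 0 and 2 with these tools, against 966 of 19927 genes with limma. Where edgeR or DESeq2 called no member, here and below, their calls over all genes are not given, so that count has no background. Their counts of all genes at an unadjusted p under 0.05 are not given either. The smallest p-values among higher members belonged to Mrps34 (0.49 ± 0.24), Mrpl52 (0.50 ± 0.28) and Mrps6 (0.40 ± 0.25), and among lower members to Mrpl24 (-0.33 ± 0.17), Mrps22 (-0.24 ± 0.26) and Mrps31 (-0.19 ± 0.22), all with adjusted p of at least 0.961. Without WT_late_4 the median was -0.0039.

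In Bptf heterozygotes the difference between late and early tumours was wider. All 76 members were higher in late tumours, with a median of 0.65 against -0.12 for all genes. With limma 46 members and 3887 of 19927 genes had an unadjusted p under 0.05. None passed adjustment with limma (adjusted p of at least 0.0527; 0% of all genes) or edgeR, where 51 had an unadjusted p under 0.05, while DESeq2 called 29, against 8.64% of all genes. The authors' deposited table called 1 of 76 members in this comparison, Mrpl57 (log2 1.66, adjusted p = 0.0247), against 4.32% of all genes with an adjusted p. Behind Mrpl57, the smallest limma p-values were those of Mrpl43 (0.87 ± 0.21) and Mrps26 (1.06 ± 0.26), both with an adjusted p of 0.0808.

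Markers of other cells and of B cell stages moved in the same comparison. In late heterozygous tumours 10 of 10 pro-B and pre-B cell genes were lower (median -3.30), as were 10 of 10 endothelial (-1.38), 11 of 12 stroma (-1.31) and 11 of 11 cartilage and skeletal muscle genes (-3.36). Higher were 8 of 8 plasma cell genes (1.82), 14 of 15 T cell genes (0.61) and 7 of 10 B cell genes (0.89). In wild type the medians were -1.28 for pro-B and pre-B cells, -0.31 for endothelium, -0.53 for stroma and 0.54 for plasma cells. None of these genes was called by limma in either genotype. With the score of T cell, macrophage, stroma and endothelium genes as a covariate the members' median in heterozygotes was 0.60, with 76 of 76 higher; the part of the B cell stages was not tested.

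For 14 of 76 members every late heterozygous value lay above every early one, which held for 3.51% of all genes tested. They were Mrpl17, Mrpl18, Mrpl21, Mrpl32, Mrpl33, Mrpl36, Mrpl40, Mrpl43, Mrpl51, Mrpl57, Mrps12, Mrps24, Mrps26 and Mrps34, named after their values were seen. In wild type this held for 0 of 76 members and 0.502% of all genes. The widest heterozygous difference was that of Mrps12 (1.54 ± 0.41, adjusted p = 0.0834, limma). Its HET_early values were 289, 211, 336 and 274 and its HET_late values 698, 2191, 446 and 598, of which that of HET_late_2 stood far above the next, 698. In wild type, Mrps12 ran from 264 to 871 in WT_early (median 477) and was 614, 481, 289, 409.6 and 506 in WT_late, so the groups overlapped.

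**Figure D3:**
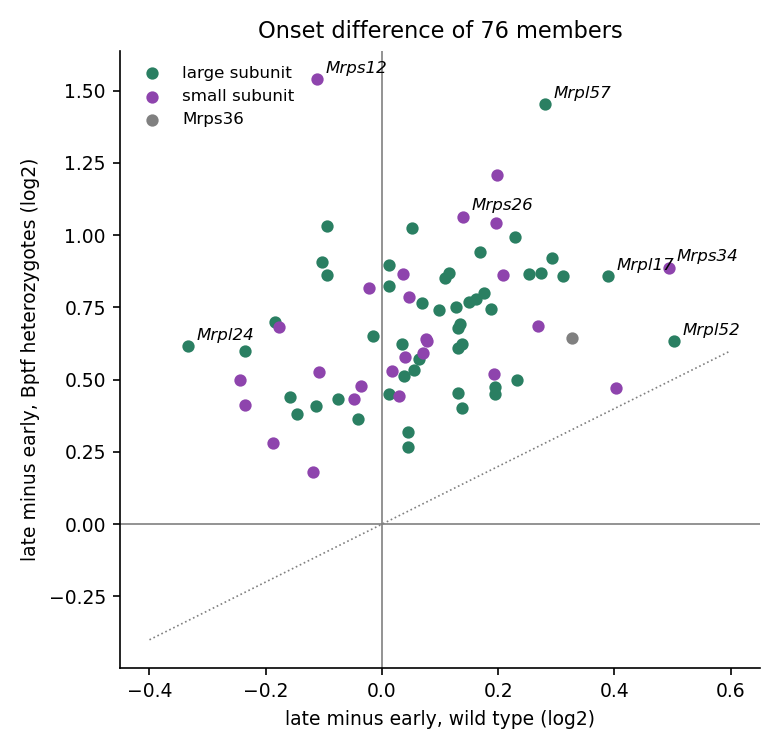
Late minus early difference (log2) of 76 members in wild-type tumours (horizontal) and in Bptf heterozygotes (vertical), coloured by subunit, with a dotted line where both would be equal. All points lie above 0 vertically (median 0.65), while horizontally 54 lie above 0 and 22 below (median 0.07).

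Members with well-known roles spanned this range. The stalk protein Mrpl12 was 952, 368, 1185 and 926 in HET_early and 997, 2526, 1371 and 1515 in HET_late, a difference of 0.94 ± 0.31 (limma, adjusted p = 0.126), against 0.17 ± 0.27 in wild type. Mrpl11 differed by 0.77 ± 0.31 and Mrps7 by 0.86 ± 0.25 in heterozygotes, both being counterparts of bacterial proteins. The Mrps18 genes are paralogs built into different places: Mrps18c, the small-subunit form closest to the bacterial protein, differed by 0.87 ± 0.30, Mrps18b by 0.48 ± 0.30 and the large-subunit protein Mrps18a by 0.27 ± 0.32. The large-subunit proteins Mrpl41 and Mrps30 differed by 0.62 ± 0.29 and 0.50 ± 0.27. Mrps36, which is no ribosomal protein, differed by 0.64 ± 0.28, close to the members' median of 0.65.

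A direct test of whether the onset difference depends on genotype called no member. The interaction was above 0 for all 76 members with a median of 0.58, against -0.07 for all genes. With limma 19 members and 1382 of 19927 genes had an unadjusted p under 0.05. No gene at all was called (0% of all genes; edgeR called 0 members, with 20 at an unadjusted p under 0.05). DESeq2 called 1 member, Mrpl24 (adjusted p = 0.0415), against 0.482% of all genes. The smallest limma p-values belonged to Mrpl24 (0.95 ± 0.26, adjusted p = 0.657), Mrpl57 (1.17 ± 0.35, adjusted p = 0.657) and Mrps12 (1.65 ± 0.53, adjusted p = 0.703). Mrpl24, a large-subunit protein with a bacterial counterpart, was 506 to 710.5 in WT_early with a median of 635. It was 470.2, 489, 495, 522 and 506 in WT_late, 395, 289.8, 573 and 456 in HET_early, and 524, 824, 588 and 650.4 in HET_late. The wild-type late values, 470.2 to 522, lay at or just below the low end of the early range, with 522 inside it, and in heterozygotes 3 of 4 late values were above all early ones.

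A pair of libraries carried much of these differences. Without HET_early_2 and HET_late_2 (an alternative added after seeing the data), the median onset difference was 0.24 in heterozygotes, with 66 of 76 members higher, 0.16 averaged over genotype, with 61 higher, and 0.18 for the interaction, with 61 above 0. Leaving out HET_early_2 alone gave 0.47 in heterozygotes and leaving out HET_late_2 alone gave 0.43. The adjusted call of Mrpl57 averaged over genotype was lost without HET_late_2 and kept without HET_early_2.

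Transcript length moved with the same comparison. Members have short mRNAs, with a median principal transcript of 1288 bases, against 3032 bases for genes with a mean value of at least 20. In heterozygotes, other genes under 1 kb had a median onset difference of 0.72, those of 1 to 2 kb 0.37, of 2 to 4 kb 0.01, of 4 to 8 kb -0.36 and over 8 kb -0.74. The members' medians were 0.71 (24 genes), 0.68 (28), 0.49 (16) and 0.66 (8) in the first 4 classes, near that of other genes below 1 kb and above it in the longer classes. The class of 4 to 8 kb is small, and exons of its members Mrps25 (69.8%), Mrpl19 (36.0%) and Mrpl48 (8.68%) overlap other genes, those of the rest 0%. Each length is that of the longest best-supported annotated transcript, and which transcripts were present was not measured. Among the 76 members themselves, the onset difference in heterozygotes fell weakly with log2 length (as a description across genes, Pearson r = -0.18 and Spearman rho = -0.26). The library slope of expression on transcript length was lowest in HET_late_2 (-0.51 per log2 unit of length) and highest in HET_early_2 (0.41). With that slope as a covariate (added after seeing the data), the median onset difference of members was -0.03 in heterozygotes, with 34 of 76 higher, and -0.07 averaged over genotype, with 28 higher and none called. The interaction had a median of 0.05 with that covariate, with 40 of 76 above 0, and of 0.29 with array weights, with 67 above 0. The part of length in the difference was not tested beyond that covariate.

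**Figure D4:**
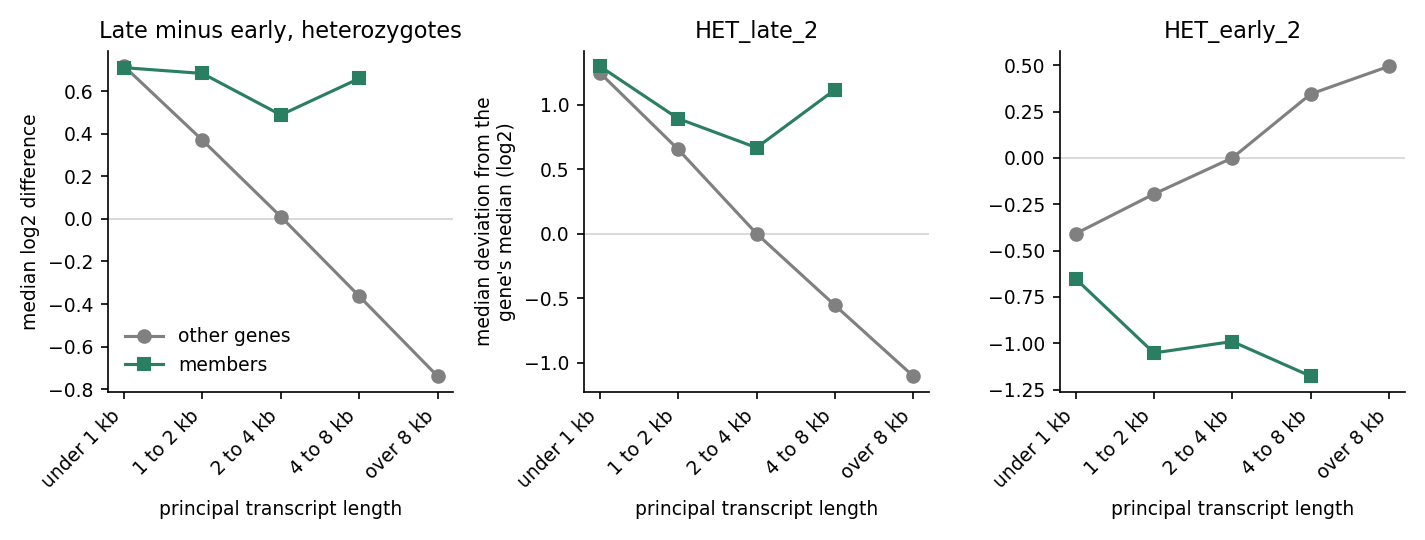
Median log2 values of the members (squares) and of other genes with a mean value of at least 20 (circles) in classes of principal transcript length: the late minus early difference in heterozygotes, and the deviation from each gene's median in HET_late_2 and HET_early_2. Other genes slope with length in all 3 panels, while the 8 members with an annotated length of 4 to 8 kb stand at 0.66, 1.12 and -1.18.

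In those 2 libraries the members kept 1 sign in each of the 4 length classes that hold them, at differing sizes. In HET_late_2 their median deviations from the shortest class to the longest were 1.30, 0.89, 0.67 and 1.12, where other genes had 1.25, 0.65, 0 and -0.56. In HET_early_2 they were -0.65, -1.05, -0.99 and -1.18, where other genes had -0.41, -0.19, 0 and 0.34. Neighbouring gene families moved in the same libraries. Medians of these lists were taken over their genes with a mean value of at least 20. That of 84 cytosolic ribosomal protein genes deviated by 1.60 in HET_late_2 and -1.46 in HET_early_2. That of 80 nuclear genes for oxidative phosphorylation deviated by 1.34 and -0.30. In HET_early_2 the B cell list stood at -4.95, the stroma list at 4.40 and the cartilage and skeletal muscle list at 11.3, and in HET_late_2 the T cell list stood at 3.27. The macrophage list stood at 1.76 in both libraries, and the B cell and stroma lists at -0.31 and 0.37 in HET_late_2. In HET_late_4, where the members' median deviation was 0.32 but their share of reads 0.368%, the T cell list stood at 2.21 and the macrophage list at 1.72. Their part in the members' values was not tested.

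The members were next compared with other genes of mitochondrial gene expression in heterozygotes. Of 6 mitoribosomal proteins listed under other symbols, 6 were higher in late tumours (median 0.86), among them Gadd45gip1 (1.26 ± 0.34) and Aurkaip1 (1.01 ± 0.27). Of 30 assembly factors of the mitoribosome 26 were higher (median 0.52), led by Mpv17l2 (1.17 ± 0.29). The medians were lower for 17 translation factors (0.31, 11 higher), 20 mitochondrial tRNA synthetases (0.32, 13 higher) and 11 genes of mitochondrial transcription (0.38, 10 higher). Cytosolic ribosomal proteins had a larger median (1.07, 82 of 85 higher) and oxidative phosphorylation genes a similar one (0.73, 77 of 81 higher). None of these genes was called by limma, as no gene was in this comparison. The list of regulators stood at -0.23, with 4 of 11 higher. It holds Nrf1, Gabpa and Yy1, whose motifs were searched above.

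Genotype was compared next, to ask whether loss of 1 Bptf allele goes with other levels. Averaged over onset, 30 members were higher and 46 lower in heterozygotes, with a median of -0.06 against 0.06 for all genes. No member and 0% of all genes were called by limma, and edgeR and DESeq2 called no member (0 and 1 at an unadjusted p under 0.05). For edgeR and DESeq2 the counts over all genes are not given, here and in early and late tumours alone. With limma 1 member and 1988 of 19927 genes had an unadjusted p under 0.05. The member was Mrpl17 (0.44 ± 0.20, adjusted p = 0.493), followed by Mrpl51 (0.29 ± 0.16) and Mrpl33 (0.32 ± 0.19) among higher members. The smallest p-values among lower ones were those of Mrps18a (-0.35 ± 0.21), Mrps9 (-0.29 ± 0.21) and Mrpl18 (-0.23 ± 0.16).

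Early and late tumours gave opposite signs. In early tumours 71 of 76 members were lower in heterozygotes, with a median of -0.33 against 0.09 for all genes. The smallest p-values were those of Mrpl24 (-0.59 ± 0.18), Mrpl18 (-0.67 ± 0.22) and Mrpl57 (-0.67 ± 0.24), each with an adjusted p of 0.402 (limma). The 5 higher members included Mrps6 (0.25 ± 0.27), Mrpl17 (0.20 ± 0.28) and Mrpl52 (0.04 ± 0.30). Limma called no member and 0% of all genes, with 10 members and 2293 of 19927 genes at an unadjusted p under 0.05. edgeR and DESeq2 called no member, with 5 and 7 at such a p. Without HET_early_2 the median was -0.14, with 63 lower. In the same comparison 10 of 10 B cell genes were lower (median -1.50), while 15 of 15 T cell (1.19), 10 of 10 endothelial (0.96) and 11 of 12 stroma genes (1.09) were higher. The members' median was -0.11 with the score of other cells as a covariate (64 lower) and -0.12 with the length slope (56 lower).

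In late tumours 70 of 76 members were higher in heterozygotes, with a median of 0.24 against 0.02 for all genes. Mrpl20 (0.61 ± 0.23), Mrpl51 (0.57 ± 0.22) and Mrpl33 (0.63 ± 0.27) had the smallest p-values, each with an adjusted p of 0.796 (limma). Those of lower members were Mrps18a (-0.24 ± 0.30), Mrpl3 (-0.06 ± 0.25) and Mrpl39 (-0.04 ± 0.24). Limma called no member and 0% of all genes, with 7 members and 1222 of 19927 genes at an unadjusted p under 0.05. edgeR and DESeq2 called no member, with 13 and 17 at such a p. Mrpl51, a large-subunit protein without bacterial counterpart, was 665, 906, 639, 916 and 554 in WT_late and 773, 1927, 901 and 971 in HET_late, and only the 1927 of HET_late_2 was above all wild-type values by more than their spread. Without HET_late_2 the median of all members was 0.05, with 49 higher. With the length slope as a covariate it was -0.11, with 25 higher, and with the score of other cells 0.41, with 76 higher. T cell genes (13 of 15, median 1.75) and macrophage genes (12 of 13, median 1.01) were higher in the same comparison.

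The last comparison used Myc itself, which drives these tumours and ranged from 1232 to 16555. A slope on log2 Myc within groups was fitted for every gene. Of the 76 members, 62 had a positive slope (median 0.17 log2 per doubling of Myc, against -0.05 for all genes), 12 passed the test with a positive slope, against 8.63% of all genes, and none with a negative one, against 11.3%. Both directions together made up 20% of all genes. edgeR called 14 members, against 19.2% of all genes, and DESeq2 17, against 24.7%. With both directions counted, the share of members called was thus near that of all genes. As all 12 limma calls were positive, the members' share was above that of all genes for positive slopes and below it for negative ones. These calls rest on 1 library, as given below.

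The 12 called members came from both subunits. With a bacterial counterpart there were Mrpl3, Mrpl9, Mrpl19, Mrpl35 and Mrpl47 of the large and Mrps5 and Mrps9 of the small subunit. Counted as without one were Mrpl37 and Mrpl39 of the large and Mrps18b (a paralog of Mrps18c), Mrps22 and Mrps31 of the small subunit. Mrps5 (slope 0.45 ± 0.09, adjusted p = 0.00321, limma) and Mrpl19 (0.50 ± 0.10, adjusted p = 0.00339) had the smallest p-values, and the slopes of the other 10 were between 0.24 and 0.39. Mrpl17 had the most negative slope (-0.23 ± 0.11, adjusted p = 0.158). Slopes of Mrpl57 (0.04 ± 0.11) and Mrps12 (0.05 ± 0.17), prominent in the onset comparison, were small beside their errors.

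Mrps5 was 674 to 1256 in WT_early with a median of 985. It was 696, 494, 945, 1091 and 918 in WT_late, 768, 299, 880.0 and 792 in HET_early, and 774, 1357, 989.6 and 614 in HET_late. The lowest values were those of HET_early_2 and WT_late_2, the libraries with the lowest Myc. The lowest HET_early value of Mrpl19, 210.0, also came from HET_early_2, with 638, 887 and 979 in the other 3. Mrps22, whose promoter with the ETS core is printed above, was 145 in HET_early_2 and between 274 and 539 elsewhere.

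**Figure D5:**
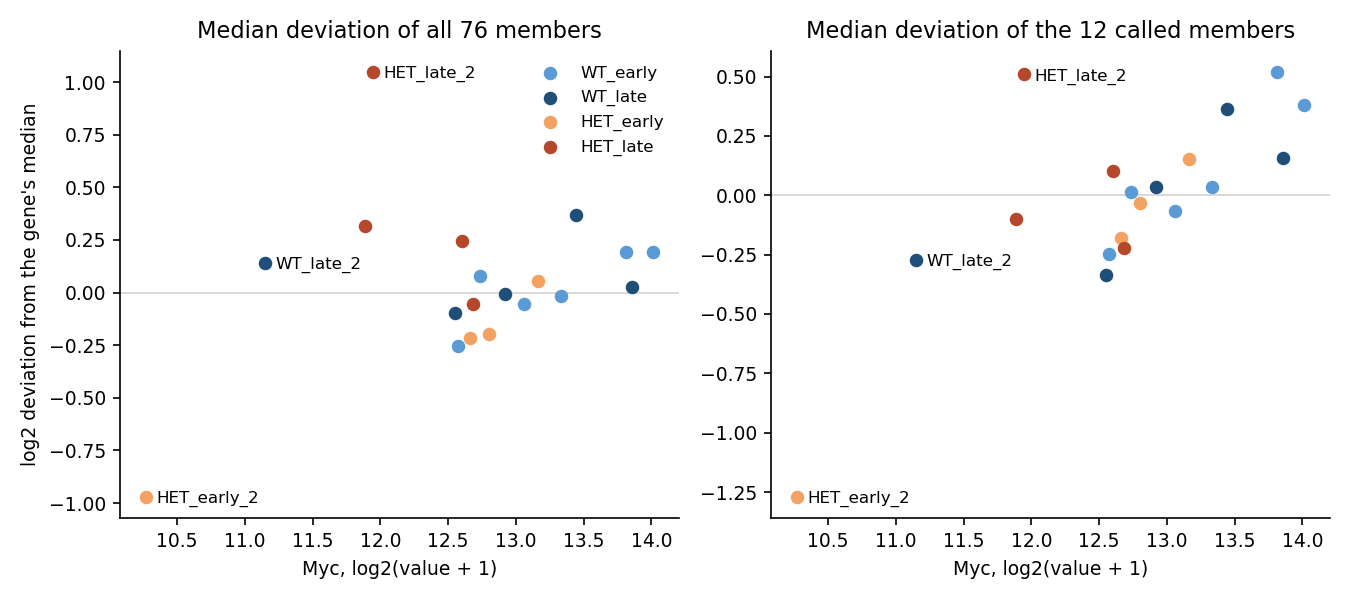
Myc level of each library (log2 of value + 1) against the median log2 deviation of all 76 members (left) and of the 12 members called for their slope (right, chosen on these same values). HET_early_2, with the lowest Myc, is lowest in both panels (-0.97 and -1.27), and HET_late_2 is high in both (1.05 and 0.51) at a low Myc level.

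The calls on Myc rest on HET_early_2. Without it no member was called and the median slope was 0.03, with 45 of 76 positive. Without the 2 libraries farthest from the median Myc level (HET_early_2 and WT_late_2) none was called either (median 0.08, 55 positive), and without HET_late_2 27 were called. How many of all genes were called in these fits is not given. With the score of T cell, macrophage, stroma and endothelium genes as a covariate, 0 members and 7 of 19926 genes in all were called, and the median slope was 0.10. Markers moved with Myc in the same fit: 12 of 12 stroma genes had a negative slope (5 called) and 9 of 10 B cell genes a positive one (3 called). The summed level of the 10 B cell genes ran from 25338 to 40137 in early and from 15964 to 46673 in late wild-type tumours. In heterozygotes it ran from 1946 (HET_early_2) to 35853 in early and from 21038 to 25271 in late tumours. Genes of mitochondrial translation outside the members also had positive slopes, all 17 of 17 translation factors (3 called, among them Lrpprc, 0.51 ± 0.08, and Gfm1, 0.41 ± 0.09), 17 of 20 tRNA synthetases (10 called higher, 1 lower) and 11 of 11 transcription genes (4 called). The part of these cells in the members' slopes was not tested beyond the covariate.

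Members were also compared with their chromosomes. In 19 pairs of a chromosome and a library, the median of all genes of that chromosome with a mean value of at least 20 deviated by at least 0.25 (log2). Of these, 14 pairs hold members. Of the 52 member values in them, 48 deviated in the direction of the chromosome, relative to members on other chromosomes. The pairs were picked for a shift of the chromosome's genes, members among them, so a shared sign is partly built in. The share of all genes with that sign was not counted, so the 48 are not a result about the members. In WT_early_3 the 418 genes of chromosome 13 had a median of -0.60. All 5 members there were low relative to other members: Mrpl36 (-1.32), Mrpl32 (-0.85), Mrps36 (-0.82), Mrps27 (-0.82) and Mrps30 (-0.80). In WT_late_5 chromosome 17 stood at 0.35, and its 8 members were all high, from Mrpl14 (0.26) to Mrpl2 (0.73).

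Single members in other libraries went with or against their chromosome. In WT_early_2 chromosome 17 stood at 0.39 and chromosome 3 at 0.34. Among members there, Mrpl2 (0.91), Mrpl47 (0.81), Mrpl9 (0.74), Mrpl28 (0.72) and Mrps18b (0.71) were high, while Mrpl14 (-0.21) and Mrps18a (-0.07) of chromosome 17 were low. In HET_early_4 chromosome 6 stood at 0.32 and its 6 members were between 0.20 and 0.51, with Mrpl19 the highest. Mrpl9, Mrpl47 and Mrps18b, called for their Myc slope, had their highest wild-type early value in WT_early_2, 1 of the libraries with the most Myc.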

How the data were processed

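Polyadenylated RNA of 19 lymphomas was sequenced. Per the submitters' processing notes, the tools were Cufflinks 2.2.1 with Cuffnorm and Cuffdiff, TopHat2 2.1.1 and FastQC 0.11.5, and the builds GRCm38 and mm10. Of the counting tool and its strand setting the labels say nothing. The authors deposited a normalised signal per gene and library, in which each library's gene counts share 1 divisor. Whole reads were recovered, since 100% of values were multiples of 1 read within 0.01 (8297856 to 12497732 per library). Per the file headers, 5 comparisons came with the authors' own log2 ratios and their adjusted p-values.

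The test was limma 3.58.1 in R 4.3.3, with a mean-variance trend, on log2(value + 1) of the 19927 genes that reached 1 in 4 or more libraries. The 4 group means were fitted together, Benjamini-Hochberg adjustment covered all genes, and an adjusted p under 0.05 was a call. The differences are on that log2 scale, which understates changes of low genes. Alternatives were edgeR 4.0.16 and DESeq2 1.42.0 on recovered reads, other pseudocounts, filters, scalings, weights and covariates, and leaving out libraries. The fits were tested on simulated data. Members and gene lists were chosen with earlier results of these data known. Named genes are those called in a comparison or, without calls, the 3 smallest p-values per direction, the extremes of level and spread, and members with known roles. Lengths and coordinates came from GENCODE M21 (GRCm38), promoters from RefSeq. A library preparation version differed between samples but was not given per library, so values within such a batch are not given. Reads were amplified by PCR without molecular identifiers, so counting error understates the technical error.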

Additional observations from a re-analysis of the deposited data

Results flagged for a closer look

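Among 112 combinations of a group with the members' share of reads, their mean or a named gene, 12 passed Dixon's limit. In these the highest or lowest library was farther from the next than the limit allows. For independent, normally distributed values chance gives about 1 in 20. Members move together and the named genes were picked on these same data, so the 12 cannot be set against that rate. HET_late_2 stood high for Mrpl3 (1243, next 876), Mrpl33 (968, next 404) and Mrps12 (2191, next 698), and HET_early_2 low for Mrps26 (328, next 545). WT_early_2 stood high for 3 genes on the chromosomes 3 and 17 that were raised there: Mrpl47 (692, next 459), Mrpl9 (1462, next 922) and Mrps18b (458, next 286). WT_late_4 stood high for Mrps26 (1075, next 733) and Mrps31 (320.2, next 234). Mrpl57 was low in WT_late_3 (451, next 590.1), Mrpl17 in WT_early_5 (385, next 588) and Mrpl51 in HET_early_1 (581, next 685).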

How the results depend on the processing

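No paired analysis was possible because replicate numbers only name libraries. Members called for onset averaged over genotype numbered 1 in the main test, where 87 of 19927 genes were called. They numbered 0 with quantile normalisation (60 genes in all) and with log2 weeks of onset (8 genes in all). They were also 0, with 0 genes in all, without the 3 libraries not led by Eef1a1 and without HET_early_2 and HET_late_2 together. With the length slope as a covariate both numbers were 0 as well. The score of other cells as a covariate gave 3 members and 577 genes, and array weights gave 4 and 667. edgeR called 4 members (539 genes in all) and DESeq2 18 (1851 genes in all). For onset in heterozygotes, where the main test called 0 members, quantile normalisation and array weights called 1 each. The score as a covariate gave 2 and DESeq2 29, and for the interaction DESeq2 gave 1. For the Myc slope (12 members called) the score gave 0. So did leaving out the 3 libraries or the 2 libraries farthest from the median Myc level. Leaving out HET_early_2 and HET_late_2 together gave 2, and array weights gave 3. Leaving out 1 library at a time gave 0 to 3 members for onset averaged over genotype, with 0 to 490 genes called in all. In heterozygotes it gave 0 to 4 members, and in the other 5 comparisons 0. For the Myc slope it gave 0 (without HET_early_2) to 27 (without HET_late_2), and 7 without HET_early_3 or HET_early_4. Apart from the shares given above, calls over all genes are not given for heterozygotes, the interaction and Myc, so those counts have no background. The causes were not tested.

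Medians of the members changed sign with the length slope as a covariate for onset averaged over genotype (-0.072), onset in wild type (-0.090), onset in heterozygotes (-0.032) and genotype in late tumours (-0.108). The median for genotype averaged over onset became 0.128 with the score, 0.056 without HET_early_2, 0.012 without HET_late_1 and 0.065 without the 3 libraries; that for onset in wild type ran from -0.0039 without WT_late_4 to 0.140 without WT_late_1. Leaving out 1 library took the median for genotype averaged over onset from -0.162 to 0.056. Single members that were not called also changed sign. With the score these were Mrps9 for genotype averaged over onset (0.066), Mrps6 (-0.031), Mrpl17 (-0.038) and Mrpl52 (-0.026) in early tumours, and Mrps18a (0.012), Mrpl3 (0.182) and Mrpl39 (0.130) in late tumours. Mrpl52 in early tumours was -0.027 with edgeR, and -0.016 to 0.139 with 1 library left out. In late tumours the same ranges were -0.21 to 0.014 for Mrpl3 and -0.199 to 0.045 for Mrpl39. In late tumours without the 3 libraries Mrpl3 was 0.0018 and Mrpl39 0.045. Of 1293 fits of 43 named genes and comparisons under alternatives, 1134 kept direction and side of the threshold, 126 lost a call, 15 gained one and 18 changed sign.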
